A study of Mus musculus with 3 samples.

Results

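AP-1 and the immediate early factors were described here by the open chromatin windows at 10 genes, named by symbol: the Fos family members Fos, Fosb, Fosl1 and Fosl2, the Jun family members Jun, Junb and Jund, the partner Atf3, and the immediate early genes Egr1 and Ier2. These are 10 of 21883 protein-coding genes of the RefSeq table for GRCm38.p6, the assembly behind mm10. A window was taken as belonging to a gene when its midpoint lay inside the gene or within 10 kb of it. By that rule the 10 genes held 18 of the 13500 windows of 201 bp in the deposited list, and 15 of its 5753 sites of the Plagl1 binding motif.

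AP-1 is a dimer of a Fos protein with a Jun protein, or of a Jun protein with another Jun protein or a relative such as Atf3, joined through their leucine zippers. Fos, Fosb, Jun, Junb, Atf3, Egr1 and Ier2 are known for being switched on quickly by growth factors or stress, Fos and Egr1 through kinases of the MAPK cascades and serum response factor, whereas Fosl1 and Fosl2 tend to follow later and Jund is made without a stimulus in many cells. AP-1 sites are also common in open chromatin of mesenchymal cells, and SWI/SNF complexes, of which Arid1a is a subunit, are known to be drawn to such sites in fibroblasts.

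The windows came from ATAC-seq, in which Tn5 transposase places sequencing adapters in accessible DNA. There was 1 mutant library, from C57BL/6 mice labelled Gli1-CreER;Arid1a fl/fl, and there were 2 control libraries from C57BL/6 mice labelled Arid1a fl/fl, so that both groups carry the floxed alleles. Per the labels' protocols, tamoxifen was injected at postnatal day 3.5 at 1.5 mg per 10 g of body weight, the apical part of the first molars was taken at postnatal day 7.5, and 5000 cells freed with collagenase went into a library. The protocol is the same text for both genotypes. Gli1-CreER acts in cells that express Gli1, whereas the libraries were made from all cells of the digest, and whether animals were pooled is not stated. The series is about Arid1a, Plagl1 and hedgehog signalling in progenitors of the tooth root and how these leave the cell cycle. The list of windows is 1 list for all libraries and carries no height or read count, so mutant and control libraries were not compared, depth is unknown, no value below has a replicate error, and no test was made. A window at a gene is no measure of its expression, and a motif site is a match of letters, not a measurement of Plagl1 binding.

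The sites at these genes are shown first, because they carry the sequence side of the result. Each is written on the strand that matches the motif, with positions 4 to 7 of the 10 bases in capitals.
Fos, chr12:85474006-85474015, minus strand: caaGGGGtcc
Fosb, chr7:19295936-19295945, plus strand: taaGAGGctc
Fosb, chr7:19296058-19296067, minus strand: tcaGAGGcac
Fosb, chr7:19310176-19310185, minus strand: cacGAGGccc
Fosb, chr7:19310246-19310255, plus strand: tgaGGGGctt
Fosl1, chr19:5457464-5457473, minus strand: tgaGAGGcaa
Junb, chr8:84978478-84978487, minus strand: agcGAGGccc
Junb, chr8:84985964-84985973, minus strand: aacGGGGcct
Junb, chr8:84985982-84985991, plus strand: cctGGGGccc
Junb, chr8:84985986-84985995, minus strand: actGGGGccc
Jund, chr8:70698987-70698996, plus strand: tacGGGGccc
Jund, chr8:70698991-70699000, minus strand: cggGGGGccc
Ier2, chr8:84656913-84656922, plus strand: aatCGGGccc
Ier2, chr8:84656917-84656926, minus strand: tagGGGGccc
Ier2, chr8:84664146-84664155, minus strand: gaaGGGGccc
Atf3, Egr1, Fosl2 and Jun had windows but no site in them, and the 15 sites had 15 different sequences. Of these sites, 9 had GGGG at positions 4 to 7, 5 had GAGG and 1, at Ier2, had CGGG. Over all sites of the list the shares were 54.7%, 44.3% and 0.209%.

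All 10 genes had a window inside them or within 10 kb, beside 59.5% of protein-coding genes. Among protein-coding genes no longer than Fosl2, at 21369 bp the longest of the 10, the share was 50.6%. Of the 10 genes, 5 had 1 window, 2 had 2 and 3 had 3, with a median of 1.5 against 1 for all protein-coding genes. Fos, Fosb and Junb were the genes with 3, a number that 5.11% of protein-coding genes reached or passed. The 10 genes are short, with a median length of 3568 bp against 17170 bp for all protein-coding genes, so the span searched was mostly flank. Within 1 kb the count was 8 of 10, beside 53.5% of protein-coding genes, and the 2 without were Fosl1 and Ier2, whose closest windows lay 1509 and 1303 bp from a gene end.

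**Figure D1:**
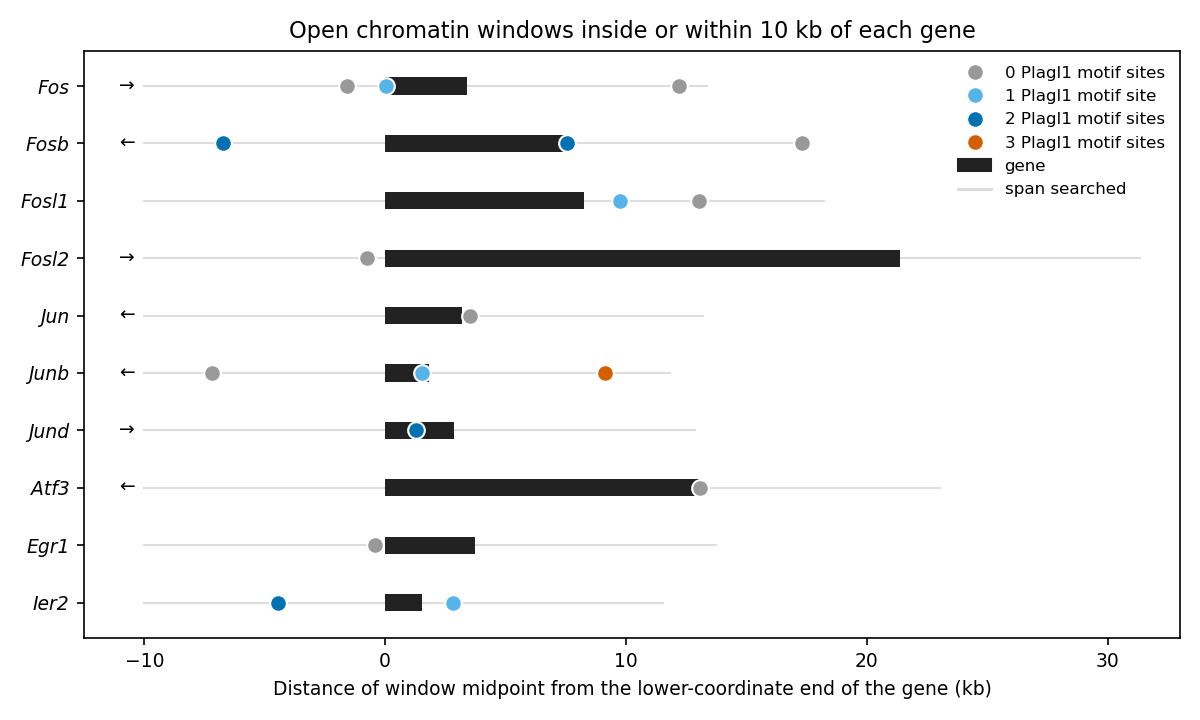
Open chromatin windows at the 10 genes, drawn by distance in kb from the lower-coordinate end of each gene. Black bars are genes, thin lines the span searched, points window midpoints coloured by their number of Plagl1 motif sites, and arrows give the direction of transcription where the promoter table has the gene. All 10 genes have a point, 3 windows lie inside a gene, and the single window with 3 sites lies outside Junb.

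Fos, whose product is the founding partner of Jun in AP-1, had 3 windows, at chr12:85472204-85472404, chr12:85473823-85474023 and chr12:85485995-85486195. Relative to the start site of the RefSeq promoter table, their midpoints lay 1586 bp upstream, 33 bp downstream and 12205 bp downstream, the last of these 8821 bp past the gene. The window over the start site had a GC content of 61.7% and held the gene's only site, with a score of 5.60. The upstream and the distal windows were richer in GC, at 67.2% and 72.1%, and held no site. All 3 had Fos as their nearest protein-coding gene, and no other protein-coding gene had any of them within 10 kb.

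Fosb, a Fos paralogue known in neurons and bone-forming cells, also had 3 windows. The promoter window at chr7:19310146-19310346 had its midpoint 201 bp upstream of the start site, a GC content of 67.7% and 2 sites, with scores of 6.47 and 5.52. A window 9943 bp upstream, at chr7:19319888-19320088, held none. The third, at chr7:19295878-19296078, lay 6718 bp past the other end of Fosb and inside Rtn2, a reticulon gene, and held 2 sites with scores of 6.53 and 5.65. Within 10 kb, Fosb and Junb had the most sites of the 10 genes, 4 each. Within 1 kb, Fosb and Jund had 2 each and Junb had 1.

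The Fosb promoter is printed because 150 of these 250 bases lie in its window and because sites are seen in their place there. Capitals mark the letters of both sites, the first of them read on the opposite strand. They start 210 and 140 bases before the start site. The sequence, from RefSeq on GRCm38.p6, is chr7:19310046-19310295 on the minus strand. The start site used, 19310045, lies inside the gene bounds used here, which reach 19310118. The last bases printed are thus within the gene, and the window's midpoint is 128 bp beyond the gene end.
Fosb promoter: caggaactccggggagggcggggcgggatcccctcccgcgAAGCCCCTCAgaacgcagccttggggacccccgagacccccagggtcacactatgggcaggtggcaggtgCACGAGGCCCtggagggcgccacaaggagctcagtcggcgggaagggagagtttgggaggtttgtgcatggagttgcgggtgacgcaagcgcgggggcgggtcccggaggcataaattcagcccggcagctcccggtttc

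Fosl1 and Fosl2 encode the Fra proteins, which lack the strong activation domain of Fos. Fosl2 had 1 window, 737 bp upstream of its start site at chr5:32135635-32135835, with a GC content of 68.7% and no site. Fosl1 had 2, both beyond its higher-coordinate end, at chr19:5457347-5457547 and chr19:5460614-5460814, 1509 and 4776 bp away. The closer window lay inside Ccdc85b and held 1 site with a score of 5.68, and the farther one lay inside Fibp and held none. Each had 3 other protein-coding genes within 10 kb, Ccdc85b, Fibp and Ctsw. Fosl1 was the only one of the 10 genes that was the nearest protein-coding gene of none of its windows.

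Among the Jun genes, Jun, the activating partner of Fos, had 1 window at chr4:95052456-95052656, 334 bp upstream of the start site, with a GC content of 68.2% and no site. Jund, the Jun protein least dependent on a stimulus, had 1 window inside the gene, 1263 bp downstream of the start site of the table, at chr8:70698902-70699102. It was the richest of the 18 windows in GC, at 77.1%, and in CpG, at 13.5 per 100 base steps, above 89.3% and 83.9% of all windows with ties split evenly. It held 2 sites, with scores of 6.74 and 6.54.

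Junb, a Jun protein often set against Jun in growth control, had 3 windows. The one inside the gene, at chr8:84978324-84978524 and 324 bp downstream of the start site, held 1 site with a score of 5.92. A window 7281 bp upstream, at chr8:84985929-84986129, held 3 sites with scores of 5.98, 6.59 and 6.57, the most of any of the 18 windows. That window lay 2747 bp from Hook2, a gene for an adaptor of microtubule motors, and so nearer to it than to Junb. The window at chr8:84969603-84969803 lay inside Prdx2, which encodes a peroxidase, and held no site.

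Atf3, a stress-induced partner that can repress as a homodimer, had 1 window at chr1:191183281-191183481, with its midpoint 48 bp upstream of the start site. Its GC content was 61.2%, and it held no site although 148 of the 250 promoter bases lay in it. Ier2, a gene of the early response, had 2 windows. The nearer one lay at chr8:84664055-84664255, 1303 bp from it, and held 1 site with a score of 6.25. The other, at chr8:84656771-84656971 and 4460 bp from the gene on the far side, held 2 sites with scores of 5.75 and 7.27. The last is the highest score at any of the 10 genes, above 98.6% of all sites. The promoter table used here has no entry for Ier2, Fosl1 or Egr1, so distances at these genes are to gene ends.

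A pattern seen only after the sites had been listed was a pair of sites on opposite strands that begin 4 bases apart and share 6 bases. It occurred in 3 of the 18 windows, at Jund, Junb and Ier2, beside 1.30% of all windows (175 of 13500). Of windows with 2 or more sites, 3 of 5 at the 10 genes had such a pair, beside 16.6% of all such windows. Counted by gene, 3 of 10 genes had a pair, beside 1.16% of protein-coding genes and 1.94% of those with a window. The pair counted for Junb lies in the window that is nearer to Hook2. The shared bases, in capitals on the plus strand, are the palindrome at the centre of each.
Jund, chr8:70698987-70699000: tacgGGGCCCcccg
Junb, chr8:84985982-84985995: cctgGGGCCCcagt
Ier2, chr8:84656913-84656926: aatcGGGCCCccta
GGGCCC, positions 5 to 10 of each of these sites, reads the same on both strands, and 1 stretch counts here as 2 sites. The palindrome alone does not give a pair. The Ier2 site at chr8:84664146-84664155 has it too and counts as 1 site. The 3 genes with a pair all lie on chromosome 8. Ier2 and Junb are 314056 bp apart there, whereas Jund lies farther off, from 70697739 to 70700616.

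In all, 6 of 10 genes had a Plagl1 motif site in a window within 10 kb, beside 25.1% of protein-coding genes. Since all 10 genes have a window, a closer share is that among protein-coding genes with a window, 42.1%. It takes no account of the number of windows per gene, with a median of 1.5 at the 10 genes against 1 for all protein-coding genes. By window, 9 of 18 held a site, beside 32.9% of all windows, and 5 of 18 held 2 or more, beside 7.81%. These 5 were both site-holding windows of Fosb and those of Jund, Junb and Ier2 with the overlapping pairs. The genes with a site in a window nearest to them numbered 5, since the site counted for Fosl1 lay in Ccdc85b.

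Scores at the 10 genes ran from 5.52, at Fosb, to 7.27, at Ier2, with a median of 6.25, beside 5.51 to 7.74 and a median of 5.94 over all sites. HOMER gives the score as log odds, of a base the file does not state. Of the 15 sites, 9 scored at or above the median of all sites, and they fell at Fosb, Junb, Jund and Ier2. The single sites of Fos and Fosl1 lay below it. The 15 scores are not independent, since 6 of them belong to the 3 overlapping pairs.

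**Figure D2:**
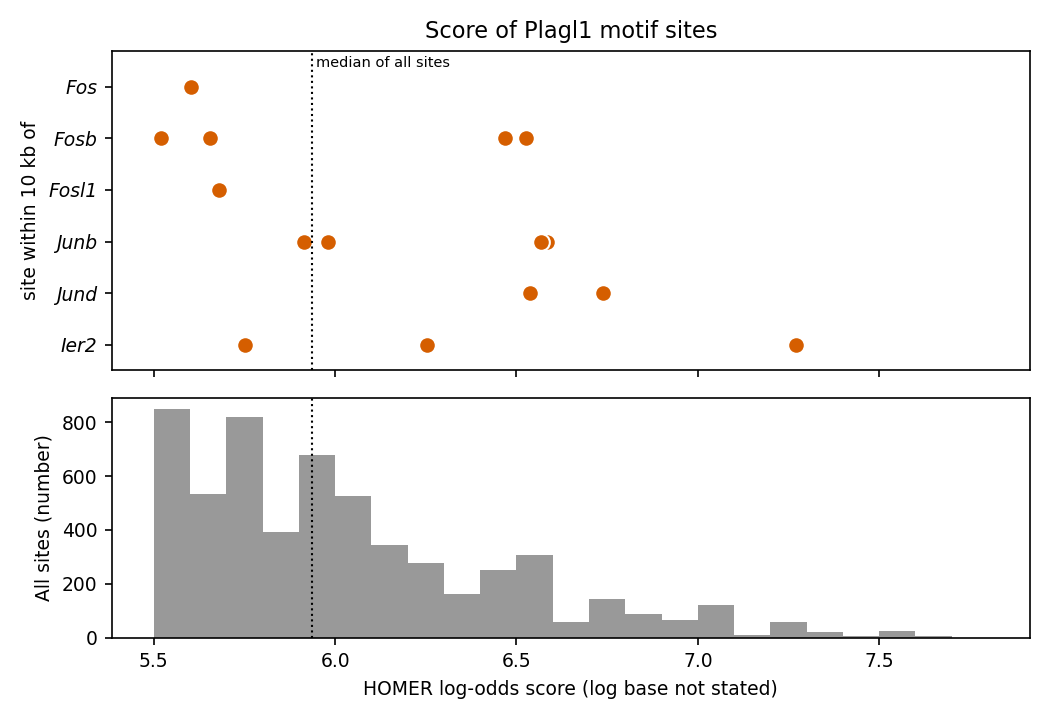
Scores of the Plagl1 motif sites within 10 kb of the 10 genes (upper panel, 1 point a site, 6 genes with a site) and of all sites of the list (lower panel, number per step of score). The dotted line is the median of all sites, 5.94. Sites of Fos and Fosl1 lie left of it, and the rightmost point, 7.27, belongs to Ier2.

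In base composition the 18 windows lay in the middle of the list. Their GC content ran from 60.2% to 77.1% with a median of 66.9%, beside 66.7% for all windows, and 17 of 18 lay between the lower and upper quartiles of all windows, 59.2% and 72.6%. CpG ran from 5.5 to 13.5 per 100 base steps with a median of 9, the same as over all windows, and 16 of 18 lay between the quartiles of 5.5 and 12. The windows of Jund and the distal window of Fos were the ones above the upper CpG quartile. The 18 thus began at 60.2% GC, in a list that reaches down to 27.4%. Within the 18, the 9 windows with a site had a median GC content of 65.2% and the 9 without had 67.2%, whereas over the list windows with a site had 67.7% and those without 66.2%. The median CpG was 7.5 per 100 base steps in the 9 windows with a site and 9.5 in the 9 without, whereas over the list it was 9 in both. These splits were not tested.

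**Figure D3:**
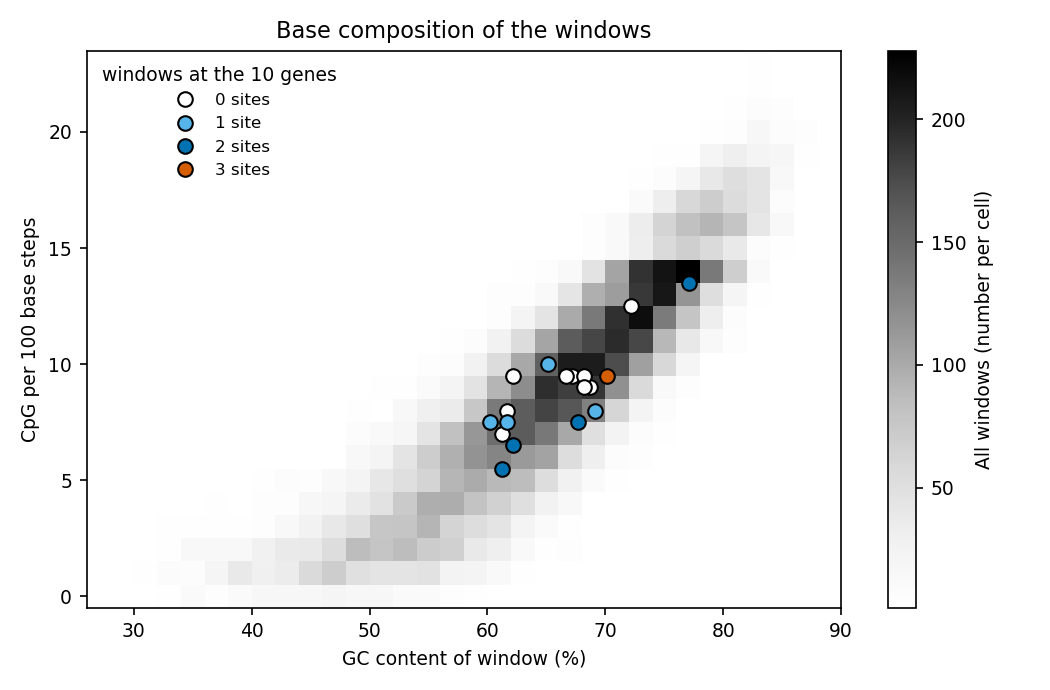
GC content in percent against CpG per 100 base steps for all windows (grey cells, number of windows) and for the 18 windows at the 10 genes (points, coloured by number of Plagl1 motif sites). The points run from 60.2% to 77.1% GC, and the one at the top right is the window of Jund.

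The promoters of 7 of the 10 genes were in the RefSeq table, at 300 bases each (250 before the start site and 50 from it). They were searched on both strands for the AP-1 site TGANTCA, the cyclic AMP element TGACGTCA and the CArG box of serum response factor, which is CC, 6 bases of A or T, and GG. None of the 7 held any of these, beside 7.81%, 1.79% and 1.63% of 32851 promoters of the table. That says only that these exact letters are not in these 300 bases. Near matches to these motifs were not counted, so their absence is not shown. Most bases of the 18 open chromatin windows lie outside them and were not searched. The letters TATAAA, searched on the gene's strand, were in 2 of the 7, beside 8.32% of promoters, starting 33 bases before the start site in Fos and at the start site itself in Junb. Letters of a Plagl1 site sequence from the deposited list were in 2 of the 7, beside 38.9% of promoters. These were Fosb, as printed above, and Junb, whose match starts 223 bases before its start site and lies in no window of the list. The promoter shares are over all 32851 promoters, which are more than the 21883 protein-coding genes used as background elsewhere.

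The Fos promoter is printed because its start-site window covers the last 67 of the 250 bases, and capitals mark TATAAA. That of Atf3 is printed for the window that covers 148 of its bases without an exact match to any of the motifs searched. They are chr12:85473640-85473889 on the plus strand and chr1:191183334-191183583 on the minus strand, from RefSeq on GRCm38.p6.
Fos promoter: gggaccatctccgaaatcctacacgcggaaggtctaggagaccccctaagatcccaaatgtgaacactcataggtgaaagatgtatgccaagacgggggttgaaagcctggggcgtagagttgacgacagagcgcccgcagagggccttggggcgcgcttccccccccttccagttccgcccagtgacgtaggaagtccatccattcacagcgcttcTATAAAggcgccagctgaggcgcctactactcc
Atf3 promoter: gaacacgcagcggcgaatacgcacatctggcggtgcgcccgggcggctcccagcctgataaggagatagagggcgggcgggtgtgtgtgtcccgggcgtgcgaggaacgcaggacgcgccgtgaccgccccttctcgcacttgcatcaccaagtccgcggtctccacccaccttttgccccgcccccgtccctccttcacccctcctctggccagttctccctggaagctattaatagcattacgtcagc

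Other genes of the AP-1 and early response pathways were set beside the 10. Of 16 other bZIP genes that can pair with AP-1 proteins or compete with them, 15 had a window within 10 kb and 3 had a site. Mafg, a small Maf, had 3 windows and 2 sites, Atf4 and Atf7 had 2 windows each and no site, and Batf2 had no window. Of 35 other immediate early genes, 32 had a window and 15 had a site. Ier3, a stress-inducible early gene, and the orphan nuclear receptor Nr4a1 had 4 windows and 1 site each, and Ier5l had 3 windows and no site. Egr4, Npas4 and Ptgs2 had none. Of 18 upstream kinases and factors, all had a window and 9 had a site. Map2k1, a kinase that activates ERK, had 3 windows and no site, Srf, which encodes serum response factor, had 3 windows and 2 sites, and Elk3, one of its partners, had 2 of each.

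A window within 10 kb was thus present at 100% of the 10 genes, against 93.8% of the bZIP genes, 91.4% of the other immediate early genes and 100% of the kinases and factors. Within 1 kb the 10 genes stood lowest, at 80.0% against 93.8%, 82.9% and 100%. A site within 10 kb was present at 6 of the 10 genes, against 3 of 16, 15 of 35 and 9 of 18 genes of those lists. Overlapping pairs were in 3 of 18 windows of the 10 genes, against 1 of 22, 1 of 52 and 1 of 27 windows of the lists. The genes with a pair there were Mafg, Ier5 and Map2k4, named after their values were seen. Gene length differs between these lists, from a median of 5297 bp for the immediate early genes to 60405 bp for the kinases and factors, and longer genes have a longer span to search. Maff is in both of the first 2 lists. Differences between the 10 genes and the lists were not tested.

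**Figure D4:**
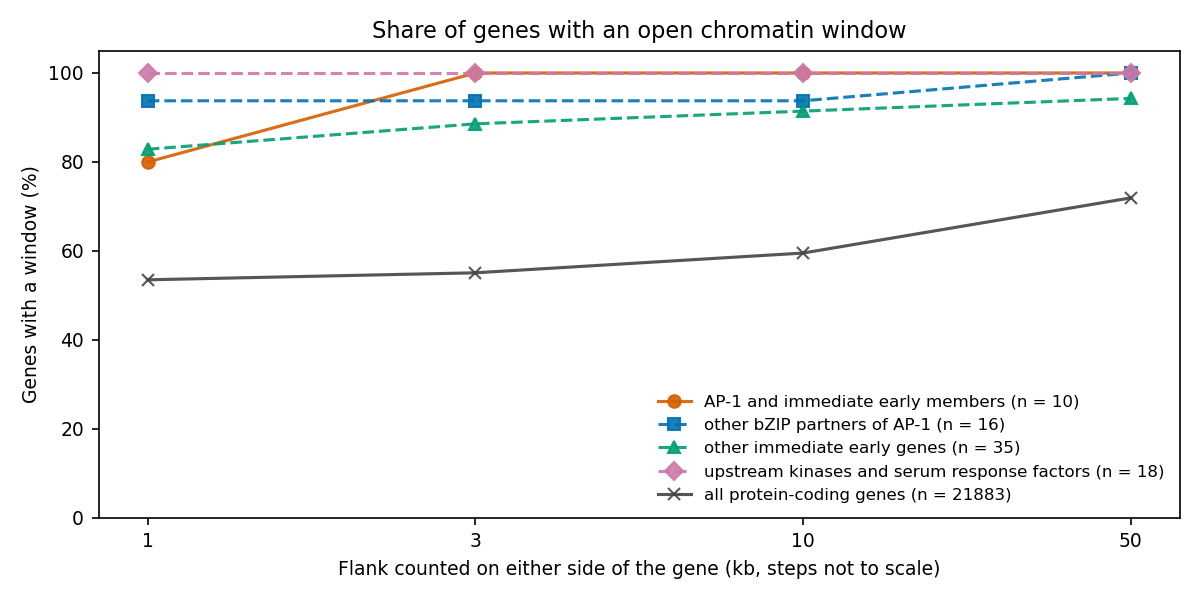
Percent of genes with an open chromatin window inside them or within 1, 3, 10 or 50 kb, for the 10 AP-1 and immediate early genes, the 3 lists of related genes and all protein-coding genes. The 10 genes stand at 80.0% at 1 kb and 100% from 3 kb on, and all protein-coding genes at 53.5% to 71.9%. At 1 kb the 3 lists of related genes stand at 82.9% to 100%.

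Egr1, the zinc finger factor of the early response, had 1 window on chromosome 18, at 34860692 to 34860892, with its midpoint 415 bp below the lower-coordinate end of the gene. Its GC content was 68.2% and its CpG 9 per 100 base steps, close to the windows of Jun and Fosl2, which had 68.2% and 68.7% GC with 9.5 and 9 CpG. Like them it held no site.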

How the data were processed

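The deposited data were a table of windows and a table of motif sites. HOMER's annotatePeaks was run, per the file headers, on a union list of MACS2 regions with the mm10 genome, on the 201 bases around each region's centre, with the Zac1 (Plagl1) motif and no gene annotation. The sources used here do not say how regions entered the list. FastQC 0.11.8, cutadapt 1.18, Bowtie2 2.3.5, MACS2 2.1.1 and edgeR 3.20.7.2 are named in the submitters' processing notes. Picard and bedtools are named without a version. The deposited GC and CpG values are fractions, per the file headers and the values, and were turned into percent and into CpG per 100 base steps. The deposited score of a site is HOMER's log-odds score.

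All 5753 sites were joined to their scores by position. As a check of the build, 1493 of 1493 sites inside a promoter of the GRCm38.p6 table had the same bases, and 1543 of 1543 windows inside one had the same GC content within 0.001 percentage points. Gene bounds and promoters came from RefSeq, and chromosome positions count from 1. Genes and windows were joined by midpoint, and the nearest protein-coding gene was the one with the smallest distance to the midpoint, 0 inside a gene. The join was tested on simulated data. A percentile counts ties at their middle.

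The genes and lists were chosen with earlier results of these data known. The text names the 10 genes, the nearest protein-coding gene of each of their windows, and from each other list up to 3 genes with the most windows (ties in alphabetical order) and up to 3 without. Outside that rule, chosen after their values were seen, it names Ctsw, a further neighbour of Fosl1, the listed genes Jdp2, Batf and Batf3 for lying beside Fos or Atf3, and Ier5 and Map2k4 for a pair of sites. Maff is named too, for being in both the bZIP and the immediate early lists. No test was made, as the tables hold no value per library. Alternatives were other flanks, any overlap in place of the midpoint, the nearest gene alone, a score minimum and other backgrounds. Python 3.11.15, numpy 2.4.6, pandas 2.3.3, scipy 1.17.1 and matplotlib 3.10.9 were used.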

Additional observations from a re-analysis of the deposited data

How the results depend on the processing

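The number of windows at the 10 genes follows the flank: 18 within 10 kb, but 8 within 1 kb, 11 within 3 kb and 42 within 50 kb. Any overlap in place of the midpoint left it at 18, and counting a window for its nearest protein-coding gene alone gave 13. Genes with a window were 10, against 8 at 1 kb, 10 at 3 and 50 kb, and 9 by nearest gene, where Fosl1 had none. Sites were 15 within 10 kb, 6 within 1 kb, 8 within 3 kb, 25 within 50 kb, and 9 when only scores at or above the median of all sites were kept. Genes with a site were 6, against 4 at 1 kb, 6 at 3 kb, 8 at 50 kb, 5 by nearest gene and 4 above the median score. The share of genes with a window was 59.5% of protein-coding genes, 36.9% of all genes of the table, and 50.6% of protein-coding genes no longer than Fosl2, a background added after the data were seen. Median GC stayed between 66.9% and 67.9% and median CpG at 9 per 100 base steps under the 1 kb and nearest-gene alternatives. No paired analysis was possible because the tables hold no value per library. Depth is unknown, and the lack of a window in the list does not show closed chromatin.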

Other observations

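Windows within 50 kb show how differently the 10 genes are placed. Fosl1, with 11 other protein-coding genes within 50 kb, had 9 windows in that span, Fosb, with 7 others, had 8, and Junb, with 8 others, had 7. Ier2 had 5 windows and 5 other genes, and Jund had 3 windows and 5 other genes. Fos had 4 windows although no other protein-coding gene lay within 50 kb, whereas Jun and Fosl2, also without another gene in that span, had 1 window each. Atf3 had 2 windows and 1 other gene, and Egr1 had 2 windows and 3 other genes. Atf3 and Egr1, with no site within 10 kb, had 1 site each within 50 kb.

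Genes for possible partners lie beside some of the 10. Jdp2, a repressor that dimerises with Jun proteins, is 121381 bp from Fos with 2 windows in between, and Batf, a bZIP factor of lymphocytes, is 209445 bp from Fos with 3. Batf3 is 61352 bp from Atf3 with 0 windows in between. Between Ier2 and Junb there were 13.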
